A study of Mus musculus with 3 samples.

Results

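A set of transcription factors and cadherins that mark or steer the mesenchymal state were followed in NIH3T3 cells carrying extra YAP. The 10 genes are the zinc finger factors Snai1, Snai2, Zeb1 and Zeb2, the basic helix-loop-helix factors Twist1 and Twist2, the homeobox factor Prrx1 and the cadherins Cdh1, Cdh2 and Cdh11. Members were probe sets whose annotation names 1 of these genes and no other gene, and each probe set was read apart. This gave 25 of the 45037 probe sets on the array, or 25 of the 34945 that name a single gene. Of the 25, 21 reached a log2 level of 6 on at least 1 array and are called clearly measured below, and the other 4 stayed under 6 on every array.

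The mtYAP array came from NIH3T3 cells stably expressing mouse YAP in which the serine at position 112 was changed to alanine (S112A), so that the LATS kinases of the Hippo pathway can no longer phosphorylate it there. The YAP array came from cells expressing the wild-type mouse protein, and the control array from NIH3T3 cells labelled untransduced. NIH3T3 is an immortalized line of NIH/Swiss mouse embryo fibroblasts, grown here in medium with 10% calf serum. Both YAP forms were delivered by retrovirus and infected cells were selected with puromycin. The methods also describe cells infected with an empty vector, and do not say which control was on the array. If it was untransduced, as its label has it, infection and selection cannot be told apart from YAP in the differences from control. Each condition had 1 array, so no value has an error, no difference has a test, and every difference describes a pair of arrays.

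The arrays were read as fibroblasts. Of 10 fibroblast markers, 9 lay at 6 or above on each array, and none of the 10 epithelial, 6 endothelial, 5 measured leukocyte, 6 skeletal muscle or 5 neuronal markers did. A free-text label of the control refers to embryonic stem cells. The 9 measured stem cell markers, Pou5f1 and Nanog among them, lay between 1.94 and 5.03 in mtYAP, between 1.84 and 4.49 in YAP and between 1.75 and 4.13 in control. The 2 probe sets of Yap1 read 6.63 and 9.15 in mtYAP, 6.61 and 9.51 in YAP and 7.30 and 9.84 in control. The sources used here do not say which part of the mRNA they cover, and they check neither label. Array medians were 4.57 in mtYAP, 4.56 in YAP and 4.60 in control.

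Epithelial cells hold to each other through E-cadherin (Cdh1), whereas mesenchymal cells such as fibroblasts carry N-cadherin (Cdh2) and cadherin-11 (Cdh11). Snail and ZEB factors are repressors that bind E-box sequences, the best known in the E-cadherin promoter, and Twist factors act on the same switch together with E proteins. Their combined action drives the epithelial-mesenchymal transition in embryos and carcinomas. In fibroblasts these genes are already active, and Prrx1 and Twist2 are known from mesenchyme of the limb, face and dermis.

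In mtYAP cells the members lay mostly below control. Among the 21 clearly measured probe sets, 17 were lower and 4 higher than in control, with a median log2 difference of -0.89. A log2 difference of -1 is a 2-fold lower level, and 9 of the 21 (42.9%) passed it. Over all probe sets with 1 gene and a level of at least 6, the share below -1 was 8.56%, the share above 1 was 8.7%, and the median difference was -0.01. No member lay above 1. The 9 probe sets read only 5 genes, Prrx1 with 4, Zeb1 with 2 and Twist2, Zeb2 and Cdh11 with 1 each, and probe sets of 1 gene are not separate observations. Counted over all levels, 9 of 25 member probe sets (36.0%) were below -1, against 4.67% of the probe sets that name 1 gene, of which 4.61% were above 1.

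In YAP cells the members stood close to control. Of the 21 clearly measured probe sets, 12 were lower and 9 higher, with a median of -0.24, beside 0.04 over all probe sets at that level. One of them (4.76%), that of Twist2, lay below -1 and none above 1, where 2.4% of all probe sets at that level lay below -1 and 3.15% above 1. Over all levels it was 1 of 25 (4.00%), beside 1.5% below -1 and 1.69% above 1 among all probe sets that name 1 gene. The count in YAP is a single probe set, so its share cannot be read as different from the background.

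The order of the arrays was uneven. In 17 of the 21 clearly measured probe sets mtYAP was the lowest of the 3 arrays, which held for 42.4% of all 14809 probe sets at that level. In 12 of the 21 the levels ran in the order mtYAP, YAP, control from low to high, as did 30.2% of all probe sets. YAP was the highest array in 7, those of Zeb2 (4), Cdh2 (2) and Snai2 (1).

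**Figure D1:**
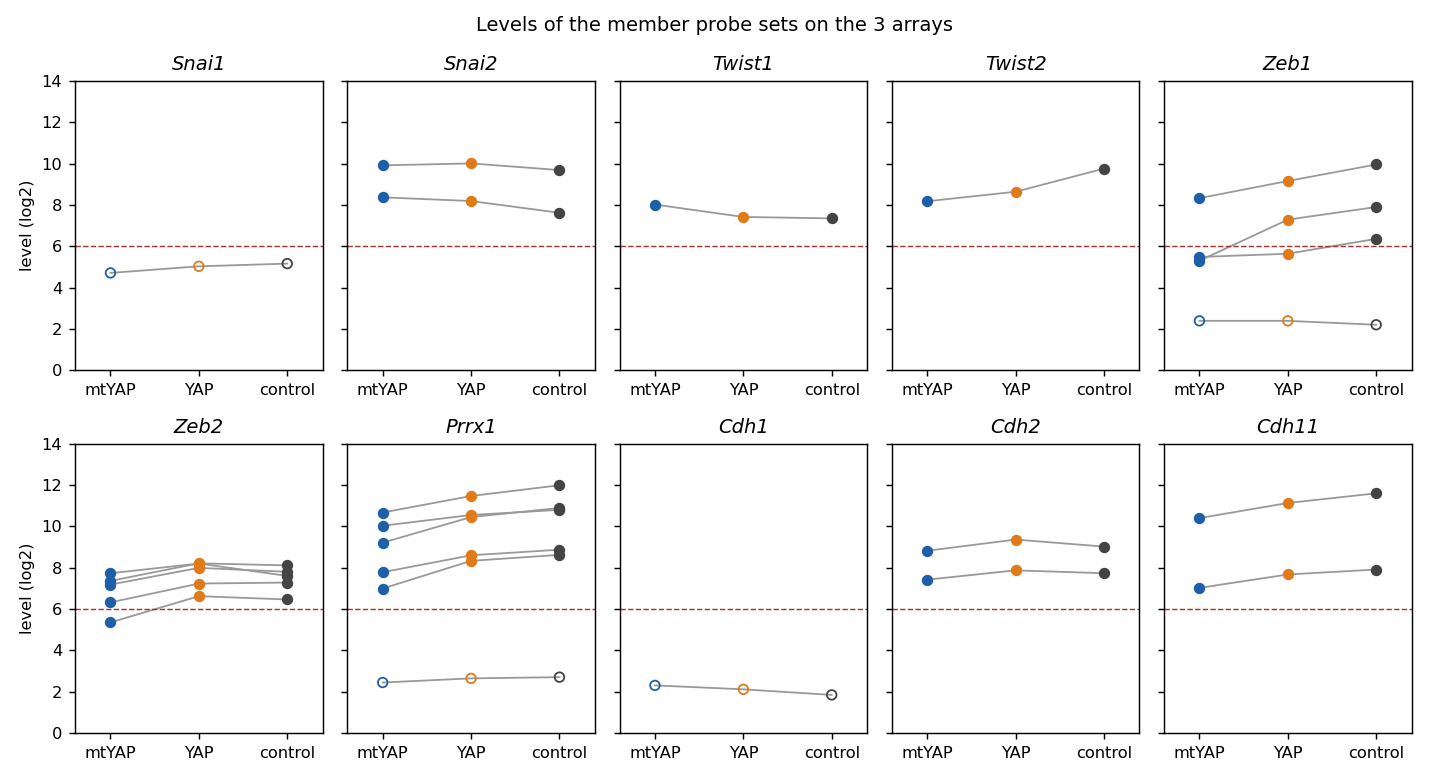
Log2 level (vertical axis) of each of the 25 member probe sets on the mtYAP, YAP and control arrays, 1 panel per gene, with a line joining the values of 1 probe set. Open circles are probe sets under 6 (dashed line) on every array. The lines of Prrx1, Twist2, Cdh11 and the 3 clearly measured probe sets of Zeb1 are lowest in mtYAP and highest in control, while those of Snai2 and Twist1 are lowest in control.

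Prrx1 encodes a homeobox factor of mesenchyme and is the member with the most probe sets. The probe set 1425528_at read 10.67 in mtYAP, 11.47 in YAP and 11.99 in control, a log2 difference from control of -1.32 in mtYAP and -0.52 in YAP. Probe set 1425526_a_at read 9.21 in mtYAP, 10.45 in YAP and 10.89 in control, and its mtYAP difference of -1.68 (3.20-fold lower) was the furthest from control among those of Prrx1. Probe set 1432129_a_at read 6.99 in mtYAP, 8.33 in YAP and 8.62 in control, a difference of -1.63 in mtYAP and -0.29 in YAP. In all 3 the mtYAP array is the low one, and YAP lies nearer to control than to mtYAP. Of the others, 1425527_at read 7.78 in mtYAP, 8.60 in YAP and 8.87 in control, which is -1.09 in mtYAP. Probe set 1439774_at read 10.03 in mtYAP, 10.55 in YAP and 10.80 in control, a difference of -0.77 that did not pass -1. The 5 clearly measured probe sets therefore had the same order of arrays, with differences between -1.68 and -0.77 in mtYAP and between -0.52 and -0.25 in YAP. Names ending in _a_at mark probe sets whose probes are shared by several transcripts of 1 gene, and the 2 of this kind had the mtYAP differences furthest from control. The remaining one, 1458004_at, stayed between 2.44 and 2.70 and carries little information.

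The sequence before the start of Prrx1 is shown because Prrx1 had the same order of arrays in all 5 clearly measured probe sets and is a gene that RefSeq windows cover. It is the 250 bases before 1 RefSeq transcript start in GRCm38.p6 (chr1:163313651-163313900, minus strand), 5′ to 3′, with the letters GGAATG or their reverse complement CATTCC in capitals. GGAATG is the core of the motif that TEAD factors, the DNA-binding partners of YAP, recognize.
Prrx1: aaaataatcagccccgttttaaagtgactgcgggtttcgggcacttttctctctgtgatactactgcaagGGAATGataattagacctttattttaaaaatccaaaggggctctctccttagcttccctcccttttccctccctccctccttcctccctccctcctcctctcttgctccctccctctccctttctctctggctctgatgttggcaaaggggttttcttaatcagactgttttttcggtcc
The first base of the match is at position -180, counted back from the start. Of 32851 RefSeq windows of this length, 12.6% hold GGAATG or CATTCC, so a match by letters is common and is a description of the sequence, not a binding site. CACCTG or CAGGTG, the E-box letters that Snail and ZEB factors bind, were not in this window.

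Zeb1, a zinc finger and homeobox repressor of E-cadherin, had 4 probe sets, of which 3 were clearly measured. Probe set 1418926_at read 8.33 in mtYAP, 9.16 in YAP and 9.96 in control. Its differences from control were -1.63 (3.10-fold lower) in mtYAP and -0.80 in YAP. Probe set 1446127_at read 5.30 in mtYAP, 7.29 in YAP and 7.90 in control. The mtYAP difference of -2.60 (6.06-fold lower) was the furthest from control of all member probe sets, but the mtYAP level is under 6, near the background, so its size is uncertain. For 1443005_at the levels were 5.48 in mtYAP, 5.64 in YAP and 6.36 in control, a difference of -0.88 and -0.72. All 3 were lower than control in both lines. Of these, 1443005_at reached 6 on the control array alone, so the level limit itself made it lower in both lines. Its levels in mtYAP and YAP are under 6, near the background. Probe set 1420243_at, for which the annotation table holds no accession, read 2.39 in mtYAP, 2.39 in YAP and 2.20 in control and lay at the low end of the array. Including it brings the mean difference of Zeb1 in mtYAP from -1.70 over the 3 clearly measured probe sets to -1.23 over all 4.

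Zeb2, the relative of Zeb1 that shares its zinc finger clusters, was lower in mtYAP but not in YAP. Probe set 1456389_at read 7.36 in mtYAP, 8.21 in YAP and 8.11 in control, a difference of -0.75 in mtYAP and 0.10 in YAP. Probe set 1458941_at read 6.32 in mtYAP, 7.23 in YAP and 7.28 in control, which is -0.96 in mtYAP, just inside the limit. Probe set 1454200_at read 5.35 in mtYAP, 6.62 in YAP and 6.46 in control, which is -1.11 in mtYAP, just past it, with a mtYAP level under 6. Whether Zeb2 counts as past the limit thus turned on 1 of its 5 probe sets. The remaining pair were 1422748_at, with 7.18 in mtYAP, 7.99 in YAP and 7.80 in control, and 1434298_at, with 7.73 in mtYAP, 8.20 in YAP and 7.60 in control. Probe set 1434298_at was the exception, higher than control in both lines, by 0.13 in mtYAP and 0.60 in YAP. Set against YAP instead of control, all 5 probe sets were lower in mtYAP, by log2 differences between -1.27 and -0.47. Against control, 4 of the 5 were lower in mtYAP and 4 of the 5 were higher in YAP.

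RefSeq lists 4 start sites for Zeb2 among these windows, and the one shown here is the window that holds the TEAD letters. It is the 250 bases at chr2:45110278-45110527 of GRCm38.p6, minus strand, with the match in capitals beginning at position -157 from the start.
Zeb2: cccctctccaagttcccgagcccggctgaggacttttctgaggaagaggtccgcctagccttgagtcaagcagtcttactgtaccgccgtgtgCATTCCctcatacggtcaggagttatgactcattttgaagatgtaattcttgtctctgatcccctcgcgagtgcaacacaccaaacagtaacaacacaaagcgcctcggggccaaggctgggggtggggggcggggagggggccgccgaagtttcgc
The 3 other Zeb2 windows held neither the TEAD letters nor the E-box letters. Among them, chr2:45113254-45113503 and chr2:45113280-45113529 overlap for most of their length. The 12.6% of windows with the TEAD letters is a share per window, and a gene with 4 windows has more room for a match. Which start the NIH3T3 cells use was not measured.

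Twist2 (Dermo1), a factor of dermal mesenchyme, was the member below -1 in both lines. Its single probe set, 1448925_at, read 8.18 in mtYAP, 8.64 in YAP and 9.76 in control. The differences from control were -1.58 (2.99-fold lower) in mtYAP and -1.12 (2.17-fold lower) in YAP, and mtYAP minus YAP was -0.46. Both YAP arrays are low and the control array is high. With 1 probe set, no second reading of Twist2 is at hand.

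The window before Twist2 is given as the counterpart to that of Prrx1, since the gene was past the limit in both lines. It covers chr1:91801211-91801460 of GRCm38.p6 on the plus strand, and no capitals appear because neither motif was found in these 250 bases.
Twist2: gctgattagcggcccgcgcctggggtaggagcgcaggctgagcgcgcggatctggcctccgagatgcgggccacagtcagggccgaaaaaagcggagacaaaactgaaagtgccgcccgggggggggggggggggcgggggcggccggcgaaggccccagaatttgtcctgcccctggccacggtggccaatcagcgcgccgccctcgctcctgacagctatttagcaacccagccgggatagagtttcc
Of the 5 members with a RefSeq window, Snai1 held the E-box letters, at position -126 from its start, where 17.2% of all windows hold them. Twist1 held neither motif. Windows of the other 5 members were not used here.

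Twist1, the relative of Twist2 known for cranial and limb mesenchyme, was not lower. Probe set 1418733_at read 8.02 in mtYAP, 7.42 in YAP and 7.35 in control, a difference of 0.67 in mtYAP and 0.07 in YAP. The mtYAP array is the high one, and YAP and control differ little. The paralogs thus stood on opposite sides of control in mtYAP, Twist1 at 0.67 and Twist2 at -1.58.

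Snai2 (Slug), the Snail factor of neural crest and fibroblasts, was the only member with all probe sets above control in both lines and more than 1 probe set to show it. Probe set 1418673_at read 8.37 in mtYAP, 8.19 in YAP and 7.62 in control, which is 0.75 (1.68-fold higher) in mtYAP and 0.57 in YAP. Probe set 1447643_x_at read 9.92 in mtYAP, 10.01 in YAP and 9.69 in control, which is 0.23 in mtYAP and 0.32 in YAP. The suffix _x marks probes that can also match other transcripts, and the annotation table holds no accession for this set. No difference of Snai2 passed 1, and mtYAP and YAP lay within 0.18 of each other. Snai1 (Snail), the founding member of that family, read 4.71 in mtYAP, 5.03 in YAP and 5.16 in control on 1448742_at. It stayed under 6 on every array, so a difference of -0.45 in mtYAP and -0.13 in YAP gives no direction for Snai1.

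**Figure D2:**
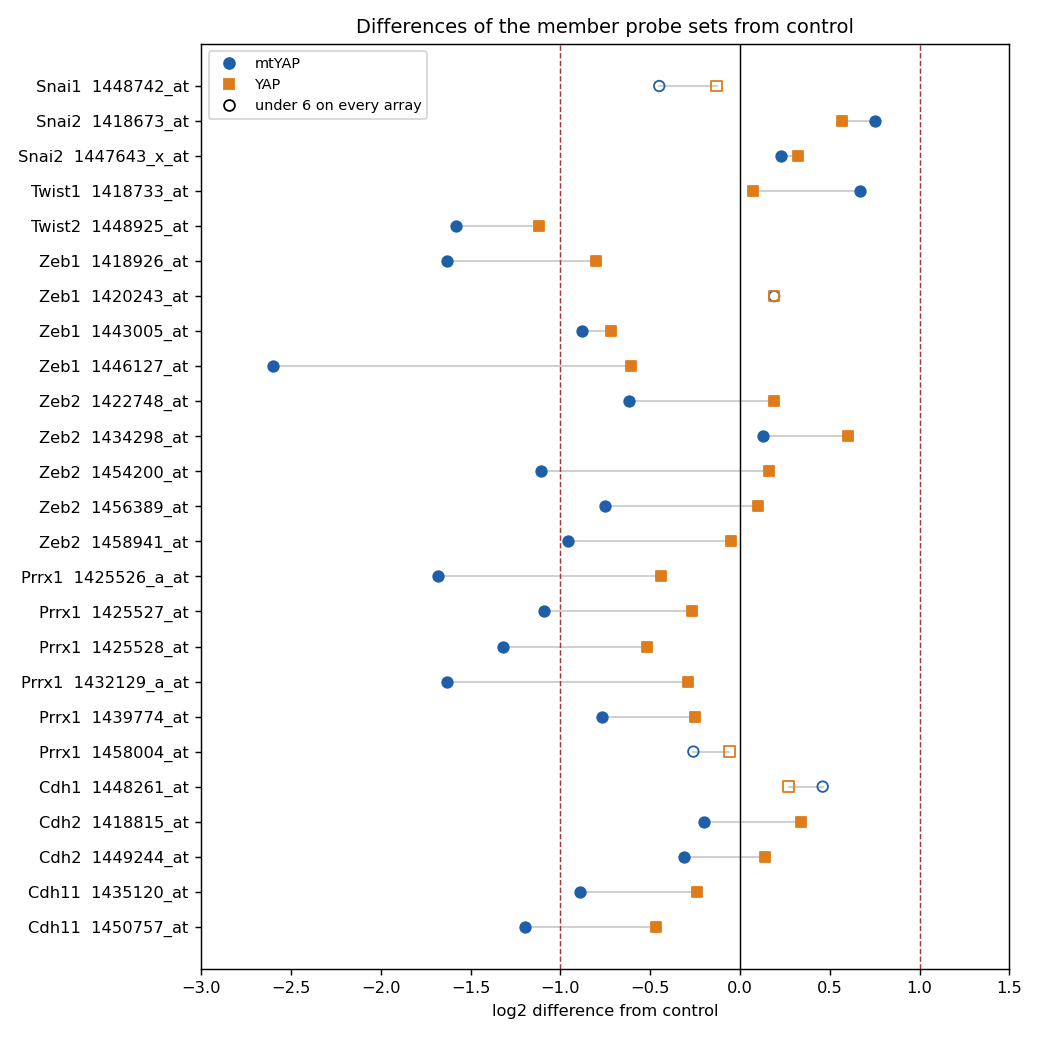
Member probe sets (rows) by their log2 difference from the control array (horizontal axis), in mtYAP (blue circles) and YAP (orange squares), with open symbols for probe sets under 6 on every array and dashed lines at the 2-fold limits. In mtYAP 9 points lie left of -1, and in YAP only Twist2 does, at -1.12.

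Among the cadherins, Cdh11 was lower in mtYAP. Cadherin-11 is the adhesion receptor of osteoblasts and synovial fibroblasts. Probe set 1450757_at read 10.40 in mtYAP, 11.13 in YAP and 11.60 in control, a difference of -1.20 (2.30-fold lower) in mtYAP and -0.47 in YAP. Probe set 1435120_at read 7.02 in mtYAP, 7.67 in YAP and 7.91 in control, a difference of -0.89 in mtYAP and -0.24 in YAP. Both probe sets have mtYAP low, YAP between and control high, and 1 of the 2 passed -1.

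Cdh2, which encodes N-cadherin, stayed near control. Probe set 1418815_at read 8.82 in mtYAP, 9.36 in YAP and 9.02 in control. Probe set 1449244_at read 7.42 in mtYAP, 7.87 in YAP and 7.73 in control. Their differences from control were -0.20 and -0.31 in mtYAP, and 0.34 and 0.14 in YAP, so both lay slightly below control in mtYAP and slightly above it in YAP. For mtYAP minus YAP they were -0.54 and -0.45. None of these differences came near the 2-fold limit.

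Cdh1, which encodes E-cadherin, lay at the bottom of the array in all conditions. Its probe set, 1448261_at, read 2.30 in mtYAP, 2.11 in YAP and 1.84 in control, under the lower quartile of each array (3.10 in mtYAP, 3.05 in YAP and 3.09 in control). The differences of 0.46 in mtYAP and 0.27 in YAP are between levels near the background and give no direction for Cdh1 mRNA. These arrays measure mRNA and say nothing of cadherin protein.

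The comparison of mtYAP with YAP does not use the control array, and both lines were infected and selected. Of the 21 clearly measured probe sets, 19 were lower in mtYAP than in YAP and 2 higher, with a median difference of -0.73, against -0.04 over all probe sets at that level. Of the 21, 4 (19.0%) lay below -1 and none above 1, where the shares of all such probe sets were 3.15% below -1 and 1.59% above 1. The 4 were Zeb1 1446127_at at -1.99, Prrx1 1432129_a_at at -1.34, Zeb2 1454200_at at -1.27 and Prrx1 1425526_a_at at -1.24. Over all levels 4 of 25 (16%) lay below -1, beside 1.66% below and 0.993% above among all probe sets that name 1 gene. Higher in mtYAP were Twist1, by 0.60, and Snai2 1418673_at, by 0.18. By gene, 6 of the 8 genes with a clearly measured probe set had all such probe sets lower in mtYAP than in YAP, 1 had them higher and 1, Snai2, was divided. Against control, 5 of the 8 were lower in mtYAP on all such probe sets, 2 higher and 1, Zeb2, divided. In YAP the counts were 4 lower, 3 higher and 1 divided, again Zeb2. Both of these comparisons use the control array, so they are not independent of each other. The comparison of mtYAP with YAP shares the mtYAP array with 1 of them and the YAP array with the other. It is therefore not independent of them either.

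**Figure D3:**
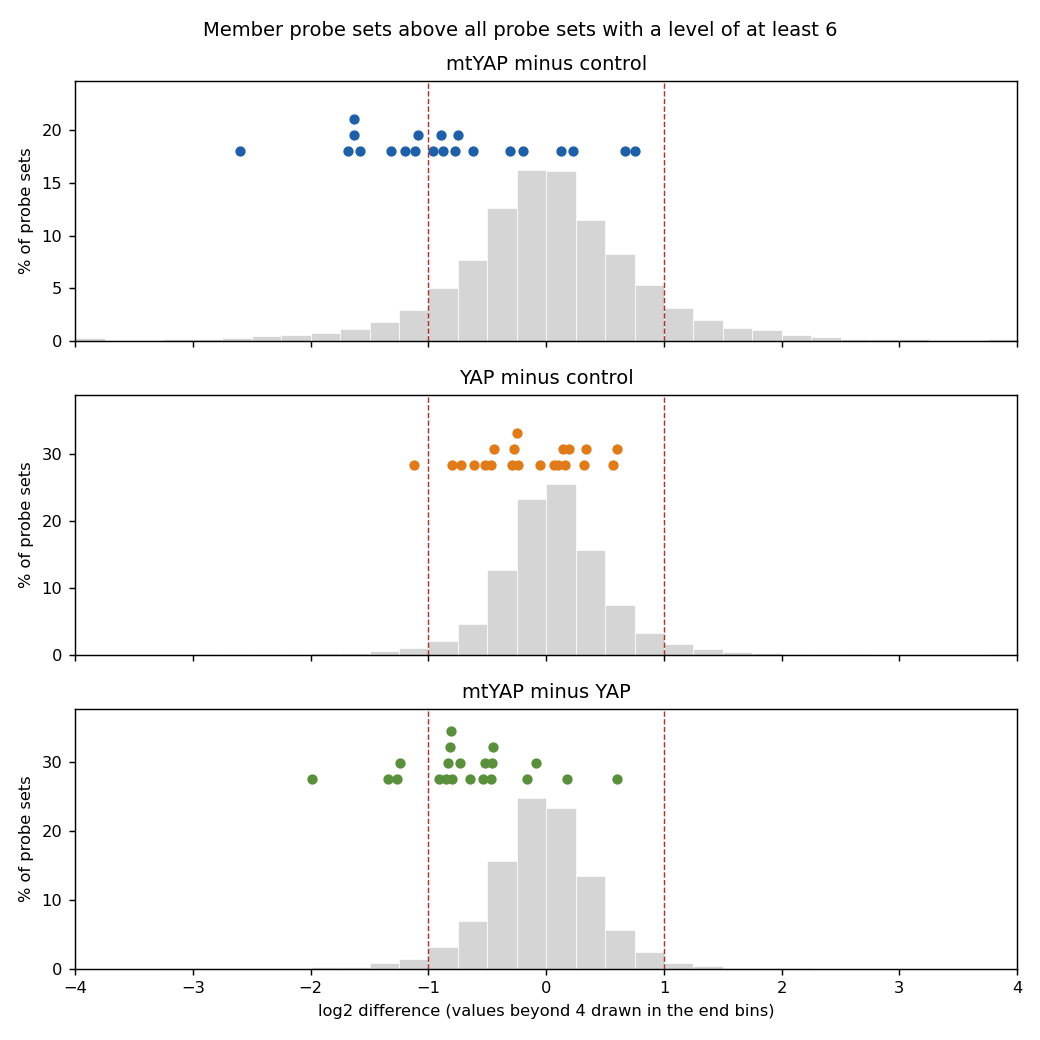
Share of the 14809 probe sets with 1 gene and a level of at least 6 (vertical axis, %) by log2 difference (horizontal axis, bins of 0.25), for mtYAP minus control, YAP minus control and mtYAP minus YAP, with the 21 clearly measured member probe sets as points whose height has no meaning. The member points lie mostly left of the centre for mtYAP minus control (median -0.89) and mtYAP minus YAP (median -0.73), and around it for YAP minus control (median -0.24).

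Genes that work with the members were read as 1 value per gene, the mean of its probe sets, with the level of 6 applied to that mean. A gene under 6 by its mean can still have single probe sets at a higher level. Over all 18193 genes, 3.77% lay above 1 and 4.06% below -1 in mtYAP, and 1.36% above and 1.26% below in YAP, and the median difference was 0.02 in mtYAP and -0.0033 in YAP. These shares are low for lists with many clearly measured genes. Among probe sets with 1 gene and a level of at least 6, 8.56% lay below -1 in mtYAP and 2.4% in YAP. Above 1 lay 8.7% in mtYAP and 3.15% in YAP. No share over genes at that level was computed. Of 22 measured partner and related factors of mesenchyme, 4 were below -1 in mtYAP (median -0.20) and 2 in YAP (median -0.13). No gene of the list was above 1. With the probe set of the highest mean level in place of the mean, the YAP count was 4. Prrx2, the paralog of Prrx1, read 4.95 in mtYAP, 5.92 in YAP and 7.16 in control, a difference of -2.21 in mtYAP and -1.24 in YAP. Like Prrx1 it was lowest in mtYAP, though its levels on both YAP arrays are under 6. Id3, which blocks basic helix-loop-helix factors by taking up their E protein partners, read 4.13 in mtYAP, 6.0 in YAP and 7.22 in control, a difference of -3.09 in mtYAP and -1.22 in YAP. Id3 has 1 probe set, and its mtYAP level is under 6, near the background, so the size is uncertain. Sox9, a factor of cartilage and neural crest, lay at -1.20 in mtYAP and -0.78 in YAP as the mean of 3 probe sets. Of these, 1451538_at, the highest in level (8.26 in control), lay at -1.99 in mtYAP and -1.13 in YAP. Probe set 1424950_at lay at -1.39 in mtYAP and -0.91 in YAP. The third, 1433889_at, read 3.88 in control and lay at -0.23 in mtYAP and -0.30 in YAP. The fourth below -1 was Id2, an inhibitor of the same kind as Id3, at -1.99 in mtYAP. It was named after its value was seen, and its mean was under 6 on every array. The Id genes did not fall together, since Id1 and Id4 of the same list lay above control in mtYAP, at 0.71 and 0.77. In YAP Id1 lay at 0.67 and Id4 at -0.32. Both were named after their values were seen, and the mean of Id4 was under 6 on every array. The E proteins themselves, Tcf3, Tcf4 and Tcf12, stood at -0.22, -0.18 and -0.44 in mtYAP, also picked after their values were seen.

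Co-repressors and regulators of the Snail and ZEB factors were measured at 16 genes, with a median difference of 0.27 in mtYAP and 0.25 in YAP. In mtYAP 1 gene exceeded the upper limit (2 by the probe set of the highest level), in YAP no gene did, and none was below -1. That gene was Ajuba, a LIM protein that bridges Snail to chromatin modifiers and also inhibits LATS kinases, with 9.20 in mtYAP, 8.12 in YAP and 7.59 in control. It was 1.61 above control in mtYAP and 0.53 in YAP. Of 16 catenins and junction proteins, 2 exceeded 1 in mtYAP, no gene mean did so in YAP, and none was below -1. This rested on the averaging, since by the probe set of the highest level 2 genes exceeded 1 in YAP. Nectin2, an immunoglobulin-like adhesion molecule of adherens junctions, lay at 1.60 in mtYAP and 0.98 in YAP, and its probe sets 1417703_at and 1424456_at at 1.31 and 0.65 in YAP. Nectin3 at 1.01 in mtYAP was the other, named after its value was seen and with a mean under 6 on every array. Ctnnb1, which encodes the β-catenin that binds cadherin tails, read 9.89 in mtYAP, 10.11 in YAP and 10.79 in control, -0.91 in mtYAP and -0.68 in YAP. The list medians were 0.08 in mtYAP and 0.05 in YAP.

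Surface and matrix markers of mesenchyme divided. Of 18 measured, 4 were below -1 in mtYAP (median -0.33) and 1 in YAP (median -0.15). No gene mean of the list was above 1. By the probe set of the highest level, 1 gene was above 1 in mtYAP and none below -1 in YAP. Pdgfrb, a receptor of platelet-derived growth factor, lay at -2.62 in mtYAP and -1.10 in YAP, and Pdgfra, its relative, at -2.41 in mtYAP and -0.36 in YAP. The calcium-binding protein gene S100a4, also called Fsp1, lay at -1.68 in mtYAP and -0.50 in YAP, and Thy1, a glycoprotein of the fibroblast surface, at -1.67 in mtYAP and -0.81 in YAP. Vim, which encodes the intermediate filament vimentin, read 12.76 in mtYAP, 13.09 in YAP and 12.92 in control, -0.16 in mtYAP and 0.17 in YAP. Fn1, which encodes fibronectin, read 11.28 in mtYAP, 11.28 in YAP and 11.68 in control. Vim and Fn1 thus stood within 0.40 of control while Pdgfra and Pdgfrb lay past the limit in mtYAP. Some other markers lay above control in at least 1 line, and those given here, above or below, were named after their values were seen. Cd44 lay at 0.825 in mtYAP and 0.45 in YAP, and Ddr2 at 0.31 in mtYAP and 0.38 in YAP. Col3a1 was above control in YAP only, at -0.165 in mtYAP and 0.72 in YAP. The other collagens of the list lay below control in both lines. Col1a1 lay at -0.785 in mtYAP and -0.15 in YAP, and Col1a2 at -0.70 in mtYAP and -0.36 in YAP. Below control in both lines were also Loxl1, at -0.725 in mtYAP, and Sparc, at -0.47 in mtYAP. As gene means, the rises of Cd44, Ddr2 and Col3a1 stayed under 1, beside the 4 markers below -1 in mtYAP. Lower levels per cell and fewer cells carrying a transcript cannot be told apart in these bulk RNA samples.

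Epithelial genes stayed low. Of 38 measured epithelial markers, 1 reached a level of 6 and 1 exceeded 1 in mtYAP. No marker mean passed either limit in YAP, where 2 exceeded 1 by the probe set of the highest level, and none was below -1. The list medians were 0.15 for mtYAP and -0.04 for YAP. Epcam, an adhesion molecule of epithelia, read 4.45 in mtYAP, 4.56 in YAP and 4.73 in control, and Krt18, a keratin of simple epithelia, 2.95 in mtYAP, 3.06 in YAP and 3.12 in control. The 1 above 1 was Pkp2, a plaque protein of desmosomes, with 1.51 in mtYAP, and the 1 that reached 6 was Tjp1, the tight junction protein ZO-1 that fibroblasts also carry, with 9.91 in mtYAP, 9.77 in YAP and 8.99 in control. Both were named after their values were seen, and the mean of Pkp2 stayed under 6 on every array. Of 8 genes of epithelial polarity, 1 lay above 1 in mtYAP, Pard6b, a scaffold of the PAR complex, with 6.03 in mtYAP, 4.79 in YAP and 4.08 in control. Its mean reached 6 in mtYAP alone, and its probe set 1423175_s_at stayed under 6 on every array. The size of this rise is therefore uncertain. No other gene of the 8 passed a limit in mtYAP and no gene did in YAP. The median was 0.19 in both lines. The 17 other cadherins measured, Cdh3 and Cdh5 among them, had means under 6 on every array. None of them lay past 1 in either direction in mtYAP or YAP.

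**Figure D4:**
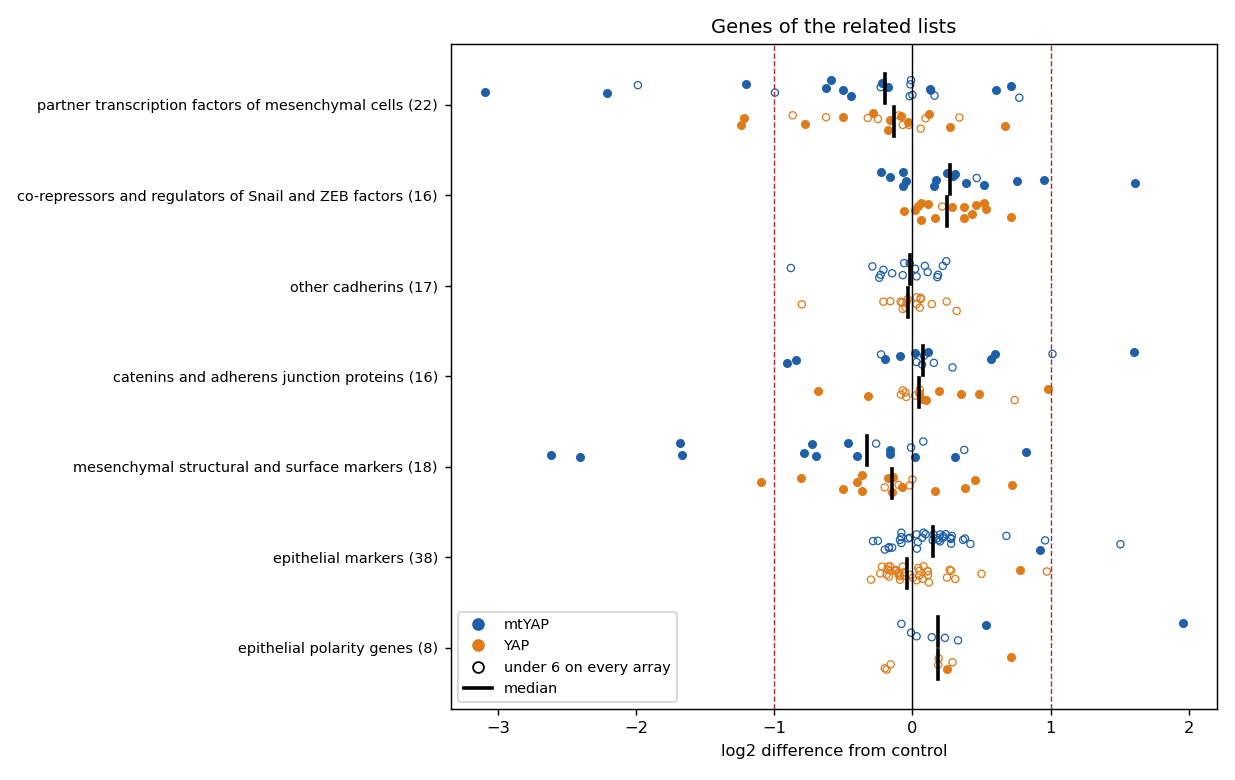
Genes of 7 lists (rows) by their log2 difference from the control array (horizontal axis), in mtYAP (blue) and YAP (orange). The number of genes measured is in brackets. Open circles are genes with a mean under 6 on every array, black bars are medians and dashed lines are the 2-fold limits. The vertical spread of points has no meaning. In mtYAP the medians run between -0.33 for the mesenchymal markers and 0.27 for the co-repressors and regulators.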

How the data were processed

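Gene expression was measured on Affymetrix GeneChip Mouse Genome arrays with 1 array per condition. The values deposited by the authors are log2 levels per probe set, background subtracted and normalized by robust multiarray analysis in R and rounded to 2 decimals. RMA and affy are named in the submitters' processing notes without a version. Gene names came from the platform annotation, and Entrez identifiers were looked up in the GRCm38.p6 RefSeq gene table, which held 18032 and not 162 of them. Differences between arrays were counted when strictly past a log2 limit of 1. No test was run. The genes named are all members, and from each related list up to 4 genes past the limit with a level of at least 6, plus Vim, Fn1, Ctnnb1, Epcam and Krt18. Members and lists were chosen with earlier results of these data known. Promoter windows came from RefSeq (GRCm38.p6). A planned comparison of member proteins was not made. Alternatives were higher level limits, a limit of 0.65, removal of the median or of a loess (span 0.3), renewed quantile normalization and other ways of joining probe sets to genes. The counting was tested on simulated data. Python 3.11.15 with numpy 2.4.6, pandas 2.3.3, statsmodels 0.14.6 and matplotlib 3.10.9 was used.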

Additional observations from a re-analysis of the deposited data

Results flagged for a closer look

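Zeb2 probe set 1454200_at was singled out because mtYAP and YAP lay on opposite sides of control and more than 1 apart on the log2 scale. It was -1.11 from control in mtYAP and 0.16 in YAP, so mtYAP minus YAP was -1.27. The difference was not tested, since each condition had 1 array, and the mtYAP level of 5.35 is under 6.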

How the results depend on the processing

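Removing the median difference, removing a loess on the level or normalizing the arrays again by quantiles shifted no member probe set by more than 0.08 and changed no count of members past the limit of 1. The deposited levels were already normalized, with array medians of 4.57 in mtYAP, 4.56 in YAP and 4.60 in control. These settings therefore had little to change and are a weak check. With a limit of 0.65, mtYAP against control gave 2 probe sets above and 14 below, YAP against control 3 below, and mtYAP against YAP 11 below. The share of all probe sets past 0.65 was not computed, so these counts have no background beside them. The count of 9 below -1 in mtYAP became 4 genes with the mean of each gene's probe sets, 4 with the probe set of the highest mean level and 4 with the mean of the probe sets that reach 6, the last added after the data were seen. In each of these ways the 4 were Twist2, Zeb1, Prrx1 and Cdh11. For mtYAP against YAP the count of 4 below -1 became 2 with a level of at least 8, 2 without _s, _x or _a probe sets, and 0 in each of the 3 ways of reading 1 value per gene. No probe set named a member together with another gene. Of 56 counts in the related lists under other settings, 48 stayed within 1.5 times and 8 did not. With the level limit of 6 applied to genes, 1 junction gene and 0 epithelial markers were above 1 in mtYAP, and the other 6 moved with the probe set of the highest mean level. Most of the 48 were counts of 0 that stayed 0, among them all those of the other cadherins. Such counts say little about how stable the lists are. No paired analysis was possible because each condition had 1 array. Levels under 6 lie near the background, where differences are compressed and their size is uncertain, and without replicates no setting shows how far a repeat array would differ.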
